A study of Mus musculus with 2 samples.

Results

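The cell cycle genes described here are 41 genes chosen by name for their roles in cell division, and 40 of them had a row among the 19073 features measured (the RNA level of Ccnb1 was not analysed here). They were sorted by role into G1 entry (5 genes), G1/S control (10 genes), DNA synthesis (7 genes), the G2/M switch (8 genes, 7 of them measured), mitosis (10 genes) and the nuclear lamina (1 gene, Lmnb1). Their RNA was measured in liver cells of male heterozygous p16-Tom mice on a C57BL/6 background. These mice carry p16-CreERT2 and a tdTomato reporter behind a stop cassette (R26-CAG-LSL-tdTomato-WPRE), so tamoxifen marks for good the cells that transcribe p16Ink4a when it is given. All animals had received carbon tetrachloride (CCl4), a toxin that injures hepatocytes near the central vein, for 4 weeks, as well as tamoxifen. Fixation came before dissociation of the liver, and Hoechst+ MitoBrilliant 646+ cells (stained for DNA and for mitochondria) were sorted into a Tom- and a Tom+ library. With 1 library per group, an unstated number of mice in each and no label that ties a cell to its animal, the differences given here are between the 2 libraries, not between the conditions.

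Most hepatocytes of an adult liver rest outside the cell cycle and can re-enter it after injury. D-type cyclins with Cdk4 and Cdk6 lift the block that the retinoblastoma protein holds on E2F factors, E2F targets then supply the enzymes of DNA synthesis, and cyclin A and B with Cdk1 drive mitosis. p16Ink4a, whose gene drives the Cre recombinase in these mice, is an inhibitor of Cdk4 and Cdk6. Hepatocytes also differ along the lobule, from zone 1 around the portal vein to zone 3 around the central vein.

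The Tom- library kept 20159 cells with a median of 26694 UMIs (unique molecules counted), and the Tom+ library kept 13378 cells with a median of 36075. Clusters of cells with few genes or with markers of other cell types were set aside, which left 11017 Tom- and 10556 Tom+ hepatocytes. All 8 hepatocyte markers had UMIs in the sum of either library, which by itself does not show that each cell is a hepatocyte. Zone 3-like cells were 2013 Tom- and 5228 Tom+ hepatocytes (18.3% and 49.5%), and zone 1-like cells were 5148 and 2421 (46.7% and 22.9%). The hepatocytes still included cluster 8 (123 Tom- and 968 Tom+ cells, unnamed), whose top genes were Col1a2, Ehd3, Dnase1l3, tdTomato, Igfbp7 and Clec4f, among them known genes of stellate cells, endothelial cells and macrophages. The zone 3-like class was not made of the same clusters in both libraries. Clusters 2 and 3 held 1086 and 888 of the Tom- cells and 1763 and 1883 of the Tom+ cells, while cluster 7 held 39 Tom- and 1582 Tom+ cells and was led by H2-Q1, Ces2c, Snhg11 and Dbp. tdTomato stood at 72.4 CPM (a gene's UMIs scaled to a common total of the class) in Tom- hepatocytes and 803 CPM in Tom+ hepatocytes. The libraries shared 503 barcode sequences, 372 of them among the cells kept. Intervals are given at 95% and describe the error of counting alone.

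The members were detected to very different extents in hepatocytes. Ccnd1 had at least 1 UMI in 56.7% of Tom- and 67.6% of Tom+ hepatocytes and Ccnd3 in 40.6% and 43.7%, while Ccnd2 had one in 6.25% and 6.38%. Ccnd1, the D-type cyclin of proliferating hepatocytes (ENSMUSG00000070348, mm10 chromosome 7, 144929931 to 144939925, minus strand), was at 35.3 CPM in Tom- and 47.1 CPM in Tom+ hepatocytes. Mki67, which encodes the proliferation marker Ki-67 (ENSMUSG00000031004, chromosome 7, 135689784 to 135716361, minus strand), was at 1.46 and 1.32 CPM, from 581 and 559 UMIs. The assay reads RNA with probes, so levels can be compared within a gene but not between genes. In hepatocytes 29 of the 40 measured members reached at least 1 CPM in either library with at least 20 UMIs over both. The 11 below it were Ccne1, E2f7, Mcm5, Cdc25b, Cdc25c, Foxm1, Cenpf, Aurkb, Plk1, Bub1 and Anln, and 5 of these belong to the mitosis group. They ranged from 0.0827 CPM (Bub1 and Cdc25c in the Tom- library) to 0.714 CPM (Plk1 in the Tom- library).

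Promoters of cell cycle genes are known for a few short motifs. The E2F motif is known from genes of the G1/S transition, and the cell cycle homology region (CHR) and the CCAAT box, which is common in other promoters too, from genes of G2 and mitosis. RefSeq windows (assembly GRCm38.p6) were at hand for 31 of the 41 genes, and the 250 bases upstream of each start were searched on both strands. The CHR was searched as TTTGAA and the CCAAT box as its name. The E2F motif was searched under several spellings, the first of them TTCCCGC, the next of them TTCGCGC, another being TTGCCGC, and the last being TTGGCGC. An E2F spelling was found for 8 of 15 G1/S control and DNA synthesis genes (53.3%) and for 3 of 13 G2/M switch and mitosis genes (23.1%), against 7.89% of all 32851 windows. TTTGAA was found in 2 of the 15 (13.3%) and 5 of the 13 (38.5%), against 16% of all windows. CCAAT was in 10 of the 15 (66.7%) and 11 of the 13 (84.6%), against 33.8% of all windows, and by group it was found for 6 of 7 DNA synthesis genes (85.7%) and 7 of 9 mitosis genes (77.8%). None of the motifs was found for the mitosis genes Birc5 and Anln. The same held for Ccne1, E2f1 and Mybl2 of G1/S control and for Tyms of DNA synthesis. Of the 3 G1 entry genes with windows, Ccnd3 held CCAAT in 1 of its 2 windows, and neither of the other motifs was found. The 5 windows printed here belong to E2f8 and Rrm2, whose levels ran in opposite directions along the lobule, and to Cdk1, Ccnb2 and Mki67, which act in G2 and mitosis. Capitals mark the matches on either strand, and over all members 2 E2F matches overlap a match of another motif. They are chr7:48881597-48881846 (minus strand) for E2f8, chr12:24708004-24708253 (plus) for Rrm2, chr10:69352913-69353162 (minus) for Cdk1, chr9:70421555-70421804 (minus) for Ccnb2 and chr7:135716380-135716629 (minus) for Mki67, each read 5′ to 3′. A match describes these letters and is not evidence of a bound factor.
E2f8: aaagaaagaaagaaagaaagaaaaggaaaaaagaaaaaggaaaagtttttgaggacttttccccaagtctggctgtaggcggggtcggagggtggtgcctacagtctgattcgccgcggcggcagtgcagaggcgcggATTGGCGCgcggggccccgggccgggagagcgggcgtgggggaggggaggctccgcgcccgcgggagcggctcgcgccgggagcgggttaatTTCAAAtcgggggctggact
Rrm2: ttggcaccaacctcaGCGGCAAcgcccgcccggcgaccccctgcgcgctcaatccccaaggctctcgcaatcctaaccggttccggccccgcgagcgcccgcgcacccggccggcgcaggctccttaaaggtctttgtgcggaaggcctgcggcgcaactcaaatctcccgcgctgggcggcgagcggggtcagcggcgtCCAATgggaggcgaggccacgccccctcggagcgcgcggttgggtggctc
Cdk1: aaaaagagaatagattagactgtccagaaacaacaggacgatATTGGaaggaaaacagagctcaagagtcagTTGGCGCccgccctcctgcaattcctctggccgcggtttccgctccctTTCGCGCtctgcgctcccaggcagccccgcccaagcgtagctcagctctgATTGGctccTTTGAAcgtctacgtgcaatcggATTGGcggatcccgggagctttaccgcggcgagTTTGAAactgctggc
Ccnb2: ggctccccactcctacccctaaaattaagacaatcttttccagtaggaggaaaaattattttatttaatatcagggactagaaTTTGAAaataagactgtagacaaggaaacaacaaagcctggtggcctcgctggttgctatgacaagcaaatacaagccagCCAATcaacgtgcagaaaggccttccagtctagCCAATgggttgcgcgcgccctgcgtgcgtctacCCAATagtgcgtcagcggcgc
Mki67: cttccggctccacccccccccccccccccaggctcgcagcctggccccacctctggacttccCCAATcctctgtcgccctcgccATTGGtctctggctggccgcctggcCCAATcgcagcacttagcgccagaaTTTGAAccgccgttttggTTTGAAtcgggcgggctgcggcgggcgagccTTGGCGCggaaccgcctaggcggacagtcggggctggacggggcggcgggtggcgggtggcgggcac

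Some members differed along the lobule, and members of the same group did not all move alike. Ccnd1, Cdk6, E2f8, Wee1 and Mcm2 were at least 1.5-fold higher in zone 3-like than in zone 1-like hepatocytes of both libraries, Rrm2 was lower by that much in both, and the sum of the mitosis group differed by less. A gene was counted as higher or lower at 1.5-fold or more, a rule of size without a test. In the Tom- library 5 of 28 members that passed the minimum were higher in zone 3-like cells and 4 were lower, where 10.2% of all 10698 genes were higher and 5.22% lower. Of the 4, Ccna2 was under 1 CPM in zone 3-like cells. It passed the minimum through zone 1-like cells alone, so it could be called in no other direction. In the Tom+ library 7 of 29 were higher and 1 was lower, where 11.2% and 4.93% of 10662 genes were. The median log2 ratio of the members was 0.31 in the Tom- and 0.40 in the Tom+ library, beside 0.12 and 0.18 over all genes.

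Of the 5 G1 entry genes 2 were called higher, in both libraries. Ccnd1 was at 51.6 CPM in zone 3-like and 21.6 CPM in zone 1-like Tom- cells, with a log2 ratio of 1.26 (1.19 to 1.32). In the Tom+ library it was at 59.0 and 21.6 CPM, a ratio of 1.45 (1.38 to 1.51). Cdk6, a kinase partner of the D cyclins, had ratios of 1.36 (Tom-) and 1.35 (Tom+). Cdk4, the other partner, differed less, with 0.44 and 0.45. Cyclin D3 (Ccnd3) had 0.22 and 0.13, and cyclin D2 (Ccnd2) 0.07 and 0.33. Summed over the 5 genes the ratio was 0.91 and 0.99, a sum in which genes with strong probes weigh most.

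In G1/S control, E2f8 had the widest gradient of any member. E2f8, an atypical E2F that represses E2F targets and takes part in hepatocyte polyploidy (ENSMUSG00000046179, chromosome 7, 48866429 to 48881596, minus strand), was at 13.8 CPM in zone 3-like and 2.54 CPM in zone 1-like Tom- cells. Its log2 ratio was 2.45 (2.29 to 2.61), and 3.0 (2.79 to 3.21) in the Tom+ library. Its close relative E2f7, which acts with it, was below the minimum and leaned the other way, at -0.56 (-1.31 to 0.13) and -1.37 (-1.97 to -0.78). In the Tom+ library E2f7 was at 0.221 CPM in zone 3-like and 0.571 CPM in zone 1-like cells. The latter fell to 0.305 CPM (24 UMIs) without cluster 9, a zone 1-like cluster nearly all of Tom+ cells. Without cluster 7 instead, the Tom+ ratio was -1.80 (-2.56 to -1.07). Cdc25a, a phosphatase that activates Cdk2, had 0.56 and 0.70, and cyclin E2 (Ccne2) had 0.33 and 0.34. Cdk2 had 0.30 and 0.45, and the activator E2f1 had 0.32 and 0.35. The retinoblastoma gene Rb1 was nearly level, with 0.04 (-0.05 to 0.14) and 0.15 (0.06 to 0.24). The intervals of Rbl1, its relative, and of Mybl2, a partner of the late cell cycle complexes, included 0 in both libraries.

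DNA synthesis genes were not alike. Mcm2, part of the replicative helicase, had a log2 ratio of 1.14 (0.89 to 1.40) in the Tom- and 1.42 (1.15 to 1.70) in the Tom+ library, and its partner Mcm6 had 0.50 and 1.03. Rrm2, the ribonucleotide reductase subunit that supplies deoxynucleotides, was at 7.56 CPM in zone 3-like and 13.7 CPM in zone 1-like Tom- cells, and at 8.21 and 12.6 CPM in the Tom+ library. Its ratios were -0.86 (-1.0 to -0.72) and -0.62 (-0.72 to -0.51). The polymerase clamp Pcna had 0.33 and 0.14. Tyms, thymidylate synthase, had 0.05 and 0.42. E2f8 and Rrm2 both carry an E2F spelling in the windows printed above, and their gradients ran in opposite directions.

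In the G2/M switch, Wee1, the kinase that holds Cdk1 inactive (ENSMUSG00000031016, chromosome 7, 110122046 to 110143286, plus strand), was at 5.07 CPM in zone 3-like and 1.40 CPM in zone 1-like Tom- cells, which gave a log2 ratio of 1.85 (1.62 to 2.09). In the Tom+ library it was at 8.62 and 2.08 CPM, a ratio of 2.05 (1.84 to 2.27). Cdk1 had 0.32 (0.11 to 0.52) and 0.55 (0.35 to 0.75). Cyclin A2 (Ccna2) and cyclin B2 (Ccnb2), partners of the cyclin-dependent kinases in S phase and mitosis, were lower in zone 3-like cells of the Tom- library, at -0.84 (-1.26 to -0.44) and -0.66 (-0.93 to -0.41). In the Tom+ library they were at -0.11 (-0.43 to 0.22) and -0.01 (-0.21 to 0.20). Ccna2 was at 0.903 CPM in zone 3-like and 1.61 CPM in zone 1-like Tom- cells. It passed the minimum through the latter alone, so it could only be called lower. In the mitosis group Mki67 had -0.21 (-0.61 to 0.17) and 0.30 (-0.04 to 0.64), and its Tom+ value was -0.50 (-0.90 to -0.09) without cluster 7. Birc5, survivin, had -0.83 (-1.21 to -0.47) and -0.53 (-0.78 to -0.27), past 1.5-fold in the Tom- library alone. The sum of the mitosis group was -0.22 (-0.37 to -0.07) in the Tom- and 0.20 (0.07 to 0.32) in the Tom+ library, and the difference between these was not tested. The Tom- value ranged from -0.77 to -0.012 under the alternatives, and was -0.012 (-0.17 to 0.14) without hepatocytes that had 3 mitotic core genes. The Tom+ value was -0.13 (-0.27 to 0.0067) without cluster 7, the cluster nearly all of Tom+ cells. Mitosis genes such as Mki67 were among the variable genes that formed that cluster, so lower Tom+ values without it were in part set in advance. Lmnb1, lamin B1 of the nuclear envelope, had 0.42 and 0.50.

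The pattern was also read without cluster names, by dividing all hepatocytes into 5 quintiles of an index of zone 3 over zone 1 markers. From quintile 1 (most zone 1) to quintile 5 (most zone 3), Ccnd1 went from 18.2 to 58.1 CPM in Tom- hepatocytes and from 20.6 to 66.4 CPM in Tom+ hepatocytes. E2f8 went from 1.87 to 17.4 CPM and from 1.61 to 19.8 CPM, and Rrm2 from 13.9 to 7.14 CPM and from 12.9 to 6.97 CPM. Mki67 was highest in the middle, with 1.04, 1.35, 2.48, 0.97 and 1.14 CPM from quintile 1 to 5 of the Tom- library and 0.97, 1.67, 2.29, 1.16 and 0.87 CPM in the Tom+ library. In quintile 3 the intervals of Mki67 lay above those of quintiles 1, 4 and 5 in both libraries. These intervals take UMIs as independent, which they were not. The 23 Tom- and 35 Tom+ hepatocytes with 3 mitotic core genes, described further on, held 26.5% and 31.5% of the Mki67 UMIs. In each library 12 of them were in quintile 3, so the intervals are too narrow to set the quintiles apart. Cdc20, which activates the anaphase-promoting complex, was also highest in quintile 3, at 1.2 CPM (Tom-) and 1.82 CPM (Tom+).

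**Figure D1:**
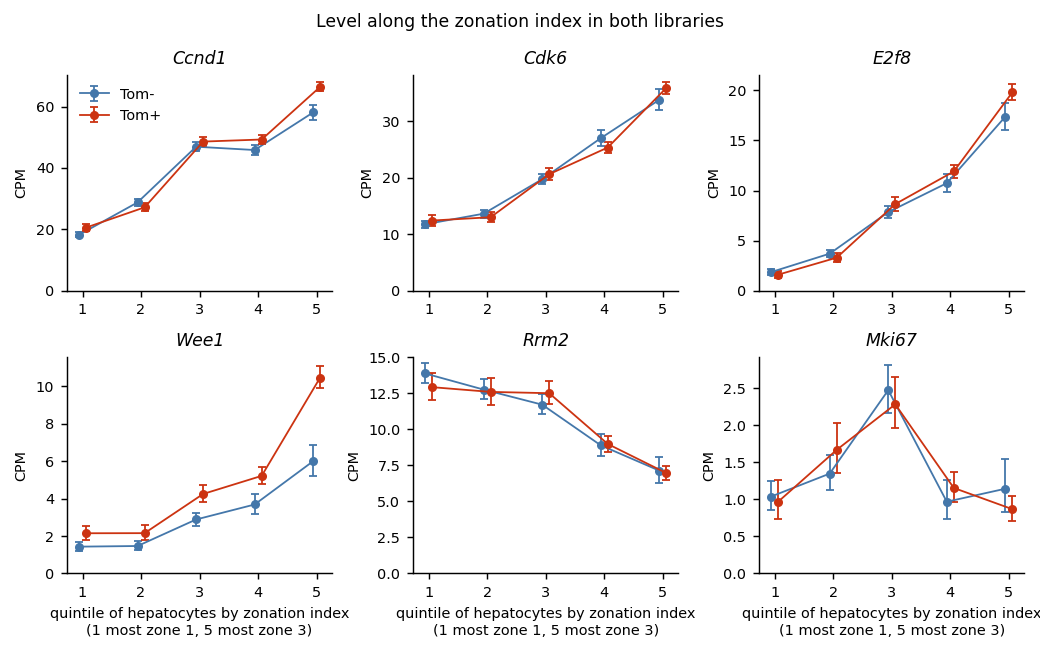
Level (CPM, linear axis from 0) of 6 members in the 5 quintiles of hepatocytes by zonation index, from quintile 1 (most zone 1) to quintile 5 (most zone 3), in the Tom- (blue) and Tom+ (red) library, where points are library sums and bars are 95% Poisson intervals. Ccnd1, Cdk6, E2f8 and Wee1 are higher towards zone 3, Rrm2 is lower, and Mki67 is highest in quintile 3 at 2.48 CPM (Tom-) and 2.29 CPM (Tom+).

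The comparison of Tom+ with Tom- hepatocytes asks how cells that had transcribed p16Ink4a differ in cell cycle RNA. Over all hepatocytes Wee1 and E2f8 were at least 1.5-fold higher in the Tom+ library, and no member was lower by that much. Of 29 members past the minimum, 2 were higher, where 2.51% of 10617 genes were higher and 0.64% lower. E2f8 was at 6.43 CPM in Tom- and 11.0 CPM in Tom+ hepatocytes, a log2 ratio of 0.77 (0.70 to 0.84), and Wee1 was at 2.52 and 5.70 CPM, a ratio of 1.18 (1.07 to 1.28). Ccnd1 had 0.42 (0.39 to 0.45), Cdk6 0.39 (0.35 to 0.44) and Rrm2 -0.22 (-0.28 to -0.16). Without cluster 8 the ratio was 0.82 for E2f8 and 1.23 for Wee1. These are the genes with gradients along the lobule, and zone 3-like cells made up 49.5% of Tom+ but 18.3% of Tom- hepatocytes, so the libraries were next compared within a zone.

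In zone 1-like cells none of 28 members past the minimum differed by 1.5-fold in either direction, where 0.715% of 10494 genes were higher and 0.438% lower in the Tom+ library, so few calls could be met among so few genes. Ccnd1 was at 21.6 CPM in both libraries, and Cdk6 was at 12.2 and 12.5 CPM. Wee1 was at 1.40 CPM in Tom- and 2.08 CPM in Tom+ cells, a log2 ratio of 0.57 (0.30 to 0.84) that lies just under the 1.5-fold limit. Cluster 9 held 32 Tom- and 505 Tom+ of the zone 1-like cells, and without it the ratio of Wee1 was 0.19 (-0.13 to 0.51). E2f8 was at 2.54 and 2.09 CPM, with -0.28 (-0.52 to -0.04), and -0.32 (-0.59 to -0.060) without cluster 9. Top2a, the topoisomerase of chromosome condensation, had -0.50 (-0.86 to -0.14), while Mki67 had -0.26 (-0.60 to 0.08). Other members whose intervals left out 0 included Ccna2 with -0.36 (-0.68 to -0.06), Ccnd2 with -0.32 (-0.62 to -0.03), Cdk1 with -0.25, Ccnb2 with -0.23 and Mybl2 with 0.34 (0.05 to 0.63). Without cluster 9 the intervals of Cdk1, at -0.18 (-0.41 to 0.04), Mybl2, at 0.25 (-0.07 to 0.56), and Ccna2, at -0.33 (-0.67 to 0.0052), included 0.

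In zone 3-like cells 2 of 29 members were at least 1.5-fold higher in the Tom+ library, Wee1 and Cdc20, and none was lower, where 1.13% of 10674 genes were higher and 0.937% lower. Cdc20 was under 1 CPM in the Tom- library and passed the minimum through the Tom+ library, where it is high, so the minimum itself left it no call but higher. The median log2 ratio of the members past the minimum was 0.13, beside 0.03 over all genes. Without cluster 7 neither call remained, and none of 28 members differed by 1.5-fold in either direction (background 0.31% higher and 1.56% lower). Cdc20, but not Wee1, was among the variable genes that formed this cluster.

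The G1 entry genes differed little within the zone 3-like class, whose make-up by cluster was not the same in both libraries. Ccnd1 was at 51.6 CPM in Tom- and 59.0 CPM in Tom+ zone 3-like cells, a log2 ratio of 0.19 (0.14 to 0.25). Cdk4 was at 18.2 and 20.0 CPM, with 0.13, and Cdk6, at 31.3 and 31.9 CPM, with 0.03. The group sum was 121 and 129 CPM, a ratio of 0.09 (0.06 to 0.13). In G1/S control E2f8 was at 13.8 and 16.7 CPM, with 0.27 (0.16 to 0.37), far less than the 0.77 over all hepatocytes. Cdk2 was at 22.0 CPM in both libraries, and Rb1 was at 18.5 and 17.9 CPM.

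In DNA synthesis Mcm6, at 3.61 and 5.17 CPM, had the largest log2 ratio of the group's members past the minimum, 0.52 (0.32 to 0.72). Tyms was at 5.81 and 7.58 CPM, with 0.38 (0.22 to 0.55). Pcna was at 27.6 and 26.8 CPM and Rrm2 at 7.56 and 8.21 CPM, and the group sum had a ratio of 0.09 (0.03 to 0.14). Lmnb1, whose loss is a known mark of senescent cells, was at 12.4 and 11.7 CPM, with -0.08. In zone 1-like cells Lmnb1 had -0.15 (-0.28 to -0.03), and -0.19 (-0.33 to -0.06) without cluster 9.

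The group sums that differed most between the libraries in zone 3-like cells were those of the G2/M switch and of mitosis. The G2/M switch group was at 13.0 CPM in Tom- and 17.8 CPM in Tom+ cells, a ratio of 0.45 (0.34 to 0.56), and 0.19 (0.07 to 0.30) without cluster 7. Wee1 gave most of this difference in CPM, at 5.07 and 8.62 CPM, a ratio of 0.77 (0.60 to 0.94), and it was at 4.97 and 5.87 CPM without cluster 7, with 0.24 (0.06 to 0.43). Ccnb2 was at 2.23 and 2.99 CPM, with 0.43 (0.17 to 0.69), and Cdk1 at 4.11 and 4.05 CPM. The mitosis group was at 6.7 and 8.9 CPM, a ratio of 0.41 (0.26 to 0.56), and 0.10 (-0.06 to 0.26) without cluster 7. It was 0.019 without the cells that had 3 mitotic core genes, which are described further on, and 0.80 with no upper limit on UMIs per cell. Cdc20 rested on 33 Tom- and 212 Tom+ UMIs, at 0.48 and 1.04 CPM, with 1.11 (0.58 to 1.69), and 0.57 (-0.01 to 1.18) without cluster 7. Mki67 was at 1.09 and 1.30 CPM, with 0.25 (-0.12 to 0.64), and -0.48 (-0.93 to -0.03) without cluster 7. Mki67 and Cdc20 were among the variable genes that formed cluster 7, so lower values without it were in part set in advance. Summed markers of macrophages were lower in Tom+ zone 3-like cells (267 CPM in Tom-, 204 CPM in Tom+), as were those of endothelial cells (73.8 and 55.5 CPM) and stellate cells (97.2 and 90.7 CPM), and their part in these values was not tested.

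**Figure D2:**
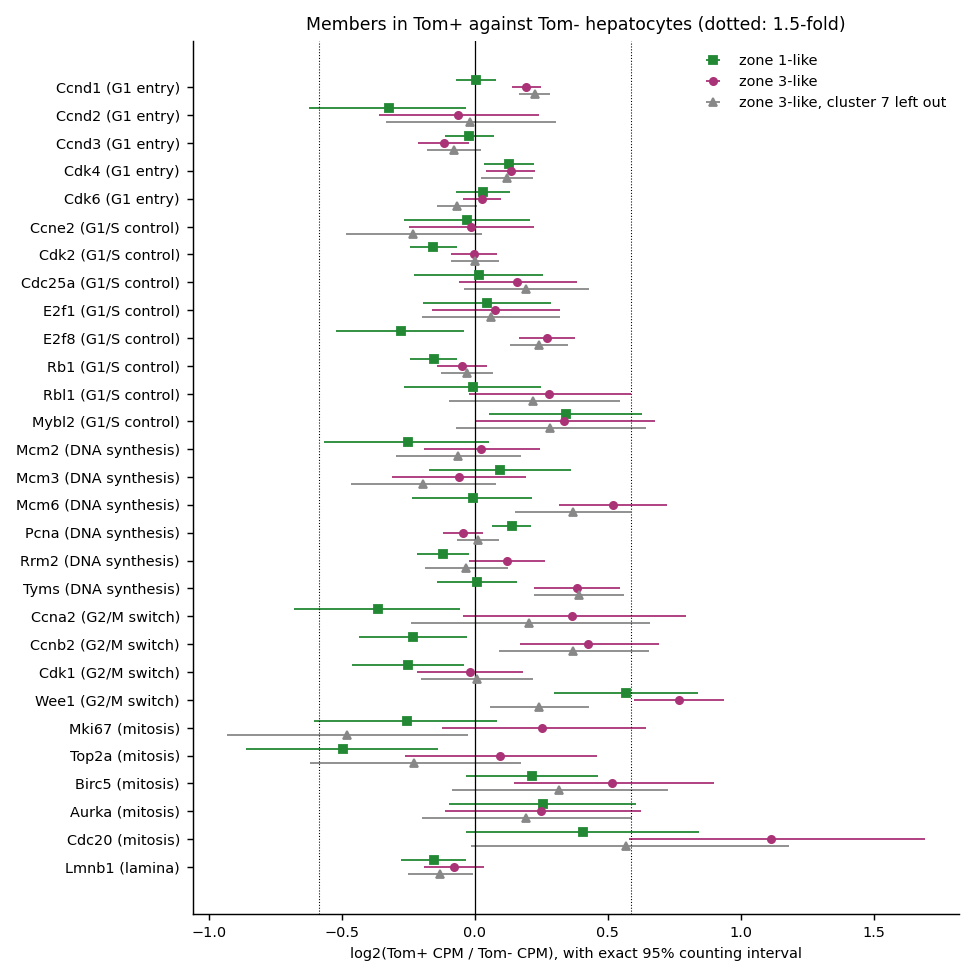
Log2 ratio of Tom+ over Tom- CPM (horizontal axis) for the members past the minimum (rows, with their group) in zone 1-like cells (green squares), zone 3-like cells (purple circles) and zone 3-like cells without cluster 7 (grey triangles), with exact 95% counting intervals as bars and 1.5-fold as dotted lines. Wee1 lies above 0 in all 3 sets (0.57, 0.77 and 0.24), and Ccnb2 and E2f8 lie below 0 in zone 1-like and above 0 in zone 3-like cells.

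Wee1 is also a known target of the circadian clock, so 10 clock genes, chosen after values of Wee1 and Dbp had been seen, were set beside it. In zone 3-like cells 5 of the 10 were at least 1.5-fold higher in the Tom+ library and none was lower, where 1.13% of all genes were higher and 0.937% lower. Of the 5, Ciart was at 0.655 CPM in Tom- and 1.33 CPM in Tom+ cells. It passed the minimum used for all genes through the Tom+ library alone, so it could be called in no other direction. Dbp, a clock-controlled transcription factor, was at 6.28 CPM in Tom- and 27.6 CPM in Tom+ cells, and Per3 was at 9.80 and 23.5 CPM. Nr1d1 was level, at 120 CPM in both libraries. Without cluster 7, 1 of the 10 was higher (background 0.31%), and in zone 1-like cells 1 of the 10 was (background 0.715%). Both times it was Dbp, with log2 ratios of 0.87 and 1.02, and Dbp is also among the 5 above. Its value had been seen before the list was chosen, so these counts cannot be weighed against the background. In zone 1-like cells without the cluster nearly all of Tom+ cells, 0 of the 10 were higher, and Dbp had 0.29 (0.18 to 0.40). The part of the clock genes in the Wee1 result was not tested. Wee1 was among the genes the study itself picked for measurement partly on these libraries, so its difference is not independent evidence.

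Cluster 7 was then set beside the other zone 3-like Tom+ cells. Of 29 members past the minimum, 6 were at least 1.5-fold higher in cluster 7 and none was lower, where 5.94% of 10743 genes were higher and 1.16% lower. The 6 were Mki67 with a log2 ratio of 1.74 (1.37 to 2.11), Wee1 with 1.32 (1.18 to 1.45), Cdc20 with 1.27, Top2a with 0.83, Birc5 with 0.65 and Ccne2. Mki67 and Cdc20 passed the minimum through cluster 7 alone, so 2 of the 6 calls could go in no other direction. Wee1 reached 14.6 CPM there. The mitosis group sum was at 12.9 CPM in cluster 7 and 7.1 CPM in the other clusters, a ratio of 0.86. Ccnd1, at -0.11, and Cdk1, at -0.04, did not follow. Of the members, Mki67, Cdc20, Top2a and Birc5 were among the 2000 variable genes that formed the clusters, and Wee1 was not, so the first 4 values describe how the cluster was made.

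To see whether mitotic RNA was spread over hepatocytes or held by few, each cell was thinned to 10000 UMIs, with shallower cells left out (353 Tom- and 458 Tom+ hepatocytes), and counted if it had at least 3 of 14 mitotic core genes. Such cells were rare in both libraries. They were 23 of 10664 Tom- hepatocytes (0.216%, exact Clopper-Pearson interval 0.14 to 0.32) and 35 of 10098 Tom+ hepatocytes (0.347%, 0.24 to 0.48), a log2 ratio of 0.68 (-0.12 to 1.51). Cluster 8 held 5 of the 35, and without it the ratio was 0.58 (-0.26 to 1.43), while without the clusters nearly all of Tom+ cells it was 0.18 (-0.79 to 1.13). Thinned to 5000 UMIs they were 17 and 16 cells (0.155% and 0.152%), and without thinning 1.85% and 2.15%. No class here can be taken to lack cell cycle RNA, so no level of free RNA could be set beside these shares, and no cycling is read from them.

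In zone 3-like cells the count was 2 of 1947 in the Tom- library (0.103%) and 21 of 5032 in the Tom+ library (0.417%), and the log2 ratio was 2.02 (-0.01 to 5.16). Cluster 7 held 15 of the 21, among 1513 cells (0.99%, 0.56 to 1.63), and its Tom- cells held 0 of 38, with an exact interval up to 9.25% (3 cells would be 7.89%). Core genes such as Mki67, Cdc20, Top2a and Birc5 were among the variable genes that formed the clusters. The share in cluster 7 thus describes in part how the cluster was made. In zone 1-like cells the count was 9 of 5002 (0.180%) and 3 of 2345 (0.128%), a ratio of -0.49 (-3.01 to 1.51). Thinned to 5000 UMIs the ratio was 1.43 (-1.53 to 6.93) in zone 3-like cells and 0.35 (-2.33 to 2.72) in zone 1-like cells, and without thinning it was 0.77 (0.14 to 1.46) and -0.35 (-0.93 to 0.20). By quintile the share peaked in quintile 3, with 12 of 2401 cells (0.50%) in the Tom- and 12 of 1716 cells (0.70%) in the Tom+ library. Quintile 1 had 3 and 1 such cells, and quintile 5 had 1 and 8. The intervals of neighbouring quintiles overlapped. The quintiles come from zone markers, and these cells were lower than other hepatocytes in the markers of both zones. Summed zone 1 markers had log2 ratios of -0.22 (Tom-) and -0.20 (Tom+), and zone 3 markers had -0.32 and -0.30. Their quintile can thus not be read as a place in the lobule, and the part of these markers in the peak was not tested.

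**Figure D3:**
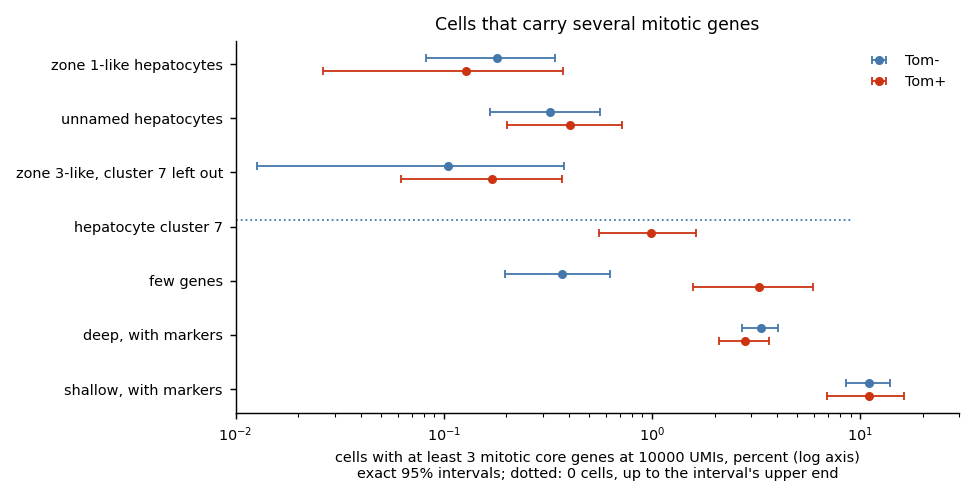
Percent of cells (log axis) with at least 3 of 14 mitotic core genes after thinning to 10000 UMIs, by class of cells, in the Tom- (blue) and Tom+ (red) library, with 95% exact binomial intervals and a dotted line for the class with 0 such cells. Tom+ cells of cluster 7 are at 0.99%, the intervals of both libraries overlap in every hepatocyte class drawn, and shallow clusters with markers are at 11.0% in each library, over the 564 Tom- and 191 Tom+ cells deep enough to be thinned (8.47% and 7.17% at 5000 UMIs). Core genes such as Mki67 were among the variable genes that formed the hepatocyte clusters, so the share in cluster 7 describes in part how it was made.

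These few cells held a large part of the RNA of some members and little of others. They held 0.237% of all hepatocyte UMIs in the Tom- and 0.352% in the Tom+ library. Of the UMIs of Bub1, a spindle checkpoint kinase, they held 42.4% and 55.0%. For Cenpf, a kinetochore protein, it was 36.8% and 41.4%, for Mki67 26.5% and 31.5%, and for Top2a 18.5% and 24.1%. These genes are on the list that chose the cells, so the values describe that choice. Cdc25c, the phosphatase that activates Cdk1, is not on the list, and these cells held 36.4% of its 33 Tom- UMIs and 44.9% of its 49 Tom+ UMIs. They held 2.13% and 2.99% for Rrm2, 1.71% and 1.49% for Lmnb1, 0.90% and 1.22% for Wee1, and 0.37% and 0.41% for Ccnd1.

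Inside these cells Rrm2 was at 105 CPM in the Tom- library, against 11.5 CPM in other hepatocytes, and at 85.5 against 9.81 CPM in the Tom+ library. Lmnb1 was higher there too, with log2 ratios of 2.87 and 2.10, whereas Ccnd1 had 0.65 and 0.21 and Cdk6 0.07 and -0.14. Summed hepatocyte markers were level (0.03 and -0.06). Endothelial markers had log2 ratios of 0.64 and 0.63 and stellate markers 0.73 and 1.25. Macrophage markers had -0.35 (-0.58 to -0.13) in the Tom- and 0.37 (0.22 to 0.51) in the Tom+ library, other leukocyte markers had 1.38 (0.50 to 2.13) and 0.37 (-0.85 to 1.35), and the part of these markers in the values was not tested. Median depth was 32079 UMIs in these cells and 33421 in others of the Tom- library, and 38077 and 36666 in the Tom+ library. Of these cells, 4 of 23 and 5 of 35 were in the tenth of cells with the highest doublet scores.

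**Figure D4:**
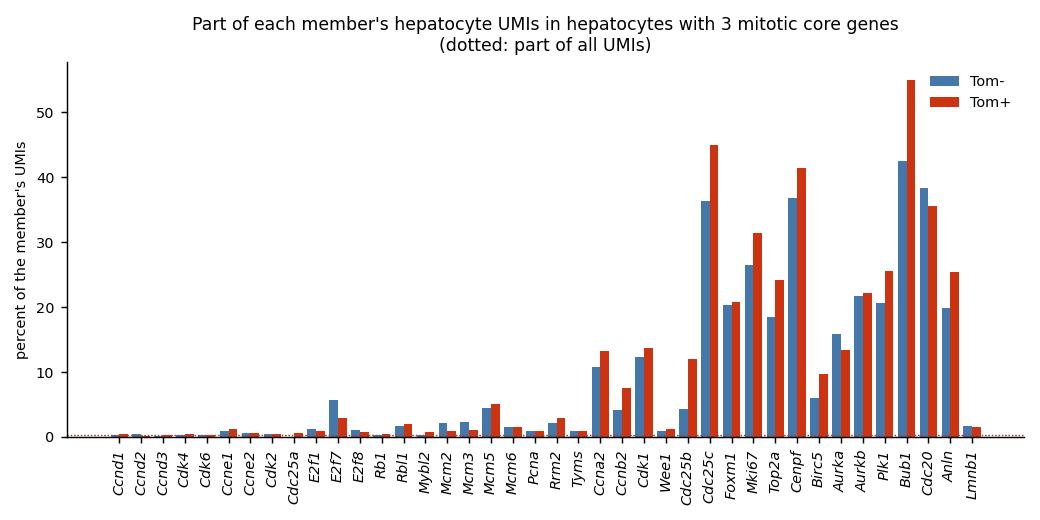
Percent of each member's hepatocyte UMIs that lie in hepatocytes with at least 3 mitotic core genes (bars from 0, Tom- blue and Tom+ red), with the dotted lines at the part of all UMIs in these cells (0.237% and 0.352%). Ccnd1 is at 0.37% (Tom-) and 0.41% (Tom+), while Bub1 reaches 42.4% and 55.0%.

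Clusters set aside from the hepatocytes held more cell cycle RNA, above all shallow clusters with markers of other cell types (1307 Tom- and 483 Tom+ cells). There 37 of 40 members were at least 1.5-fold higher than in Tom- hepatocytes and none was lower, where 37.2% of 12334 genes were higher and 11.3% lower. In the Tom+ library 33 were higher and 1 was lower (E2f8, -0.62), where 36.2% and 11.4% of 12454 genes were. Of these higher calls, 12 in the Tom- and 11 in the Tom+ library were of members under 1 CPM in hepatocytes, which passed the minimum through the shallow clusters and could be called in that direction alone. The median log2 ratio of the members was 2.67 and 2.11, beside 0.26 and 0.25 over all genes. All 10 mitosis genes were higher in both libraries, with medians of 4.26 and 4.14. Mki67 was at 31.1 CPM (Tom-) and 25.6 CPM (Tom+), and Ccnd2 was at 26.9 and 38.0 CPM, with ratios of 3.84 and 4.36. Cdk6 was close to its hepatocyte level, with 0.23 and 0.03. Ccnd1, at 59.0 and 67.3 CPM, was near the level of zone 3-like hepatocytes.

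The shallow clusters were divided into 13 sub-clusters, grouped by the markers most of which were higher, a grouping set after the data had been seen. They are described by those markers and not named as cell types. Mki67 was at 92.1 CPM (Tom-) and 77.1 CPM (Tom+) in the macrophage-marker group, at 16.5 and 18.6 CPM in the endothelial-marker group and at 16.8 and 31.8 CPM in the stellate-marker group. Sub-clusters of few cells carried much of the first and second of these sums. Of the 198 Tom- and 42 Tom+ UMIs of the macrophage-marker group, sub-cluster 7 held 177 and 34, and the rest of the group was at 13.1 CPM (Tom-) and 19.1 CPM (Tom+). Of the 89 and 33 UMIs of the endothelial-marker group, sub-cluster 10 held 73 and 23, and the rest was at 3.08 and 5.79 CPM. Over all genes, sub-cluster 0 held 4635522 of this group's 5399745 Tom- UMIs and 1379183 of its 1776794 Tom+ UMIs. It had 6 of 10 endothelial markers higher, and the hepatocyte zone markers Mup3 and Cyp2f2 were among its top genes. The group's levels are thus in large part those of profiles with hepatocyte RNA. Sub-cluster 7, of 75 cells with 11 of 11 macrophage markers higher, had Mki67 at 322 and 271 CPM and Pcna at 220 and 231 CPM. Sub-cluster 10, of 34 cells with 10 of 10 endothelial markers higher, had Mki67 at 355 and 466 CPM and Cdk1 at 336 and 629 CPM. Both were led by cell cycle genes such as Aurkb, Knl1 and Cenpf, so their levels describe how they were formed.

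Deep clusters with markers (3081 Tom- and 2008 Tom+ cells), in which hepatocyte markers stood beside those of other types, were in between. Of 36 members past the minimum 19 were higher than in hepatocytes of the Tom- library, where 14.5% of 11386 genes were higher and 0.184% lower. In the Tom+ library it was 15 of 35, where 14.4% of 11452 genes were higher and 0.244% lower. Of these calls, 8 and 6 were of members under 1 CPM in hepatocytes, which passed through the deep clusters alone. Likeness to Mki67 was taken over the clusters of all cells, split by library (33 sums, which share library and depth). The genes whose level on the log2 scale was most like that of Mki67 were Anln, Bub1b, C330027C09Rik, Ccna2 and Dlgap5, with Pearson's r from 0.937 to 0.959 as a description.

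**Figure D5:**
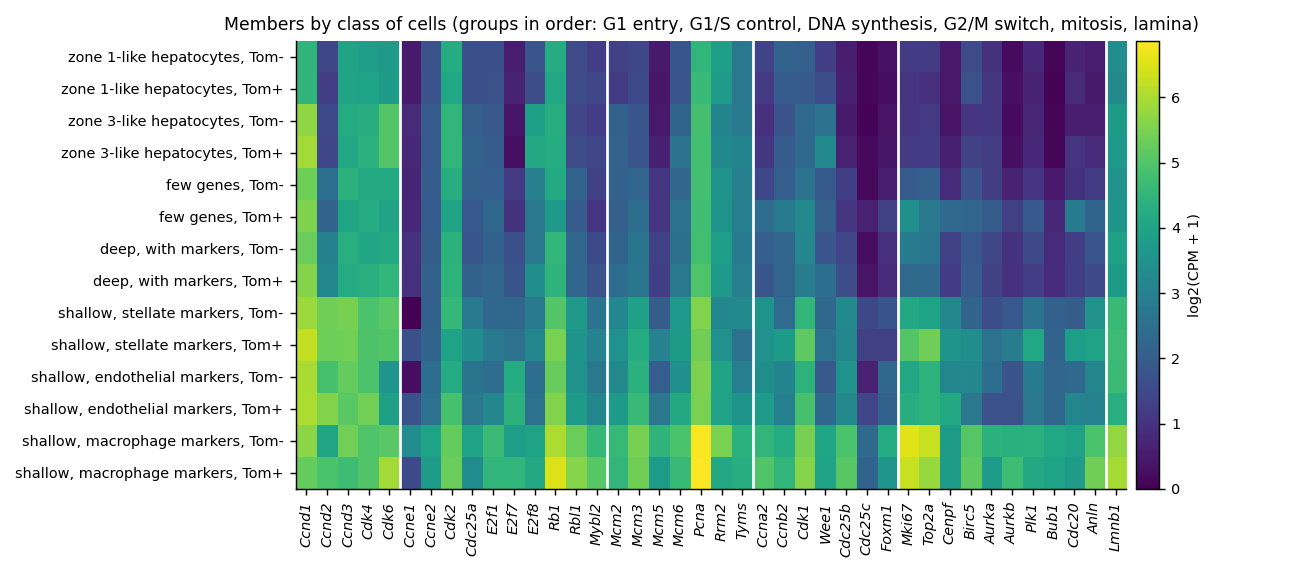
Level of the 40 measured members as log2(CPM + 1) in each class of cells and library (rows), with columns by phase group between white lines. Levels are to be compared down a column and not across genes, and the mitosis columns are brightest in the macrophage-marker sums, where Mki67 is at 92.1 CPM (Tom-) and 77.1 CPM (Tom+).

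Other genes of the same pathways were read from 4 further lists. In zone 3-like cells, against Tom- cells, none of 18 other S phase genes, none of 19 other Rb-E2F and DREAM genes and none of 5 CDK inhibitors past the minimum differed by 1.5-fold, with medians of -0.08, 0.01 and -0.08. Of 10 other mitosis genes 1 was higher, Ube2c, which passed the minimum through the Tom+ library alone, and the median was 0.14, where 1.13% of all genes were higher and 0.937% lower. In zone 1-like cells 1 of 20 other Rb-E2F and DREAM genes was higher in the Tom+ library (background 0.715%). Over all hepatocytes 1 of 5 CDK inhibitors was (background 2.51%). No other gene of these lists was called in either set. Along the lobule the CDK inhibitor Cdkn1c, which restrains cell cycle entry, was at 93.9 CPM in zone 3-like and 7.23 CPM in zone 1-like Tom- cells (log2 ratio 3.70), and at 90.8 and 9.04 CPM in the Tom+ library (3.33). E2f2, an activator E2F, was lower in zone 3-like cells, at -1.65 and -2.06, and Ect2, a cytokinesis factor, had 1.03 in the Tom- library. E2f2 was under 1 CPM in zone 3-like cells of both libraries. It passed the minimum through zone 1-like cells alone, so it could be called in no other direction. In cluster 7, against other zone 3-like Tom+ cells, 6 of 12 other mitosis genes were higher (background 5.94%), among them Hmmr with 1.74 and Tpx2 with 1.09, and 3 of the 6 (Hmmr, Tpx2 and Ube2c) passed the minimum through cluster 7 alone. Of the 5 CDK inhibitors there, 1 was lower (background 1.16%), Cdkn1a, which encodes p21, with -0.71 (-0.77 to -0.66), named after its value was seen.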

How the data were processed

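Fixed liver cells of CCl4-treated p16-Tom mice were measured with the probe-based 10x Flex assay, with 1 Tom- and 1 Tom+ library. The authors deposited unnormalised UMI counts for each gene in each cell, made with Cell Ranger 7.2.0 on mm10, per the submitters' processing notes. Custom probes for tdTomato had been added to the commercial mouse set, and close relatives can share probes. There were 681279005 UMIs over 23220 barcodes (Tom-) and 715333889 UMIs over 16339 barcodes (Tom+).

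Cells were kept with 2000 to 10000 genes, at most 100000 UMIs and a mitochondrial fraction of at most 0.05, after the study's methods. Cells over the UMI limit numbered 360 and 1239, and cells with too few genes 2663 and 1682. Counts were scaled to 10000 per cell and logged, and 2000 variable genes, 30 components, 20 neighbours and Leiden resolution 0.8 were used on both libraries together (scanpy 1.11.5, leidenalg 0.10.2, numpy 2.4.6, scipy 1.17.1, Python 3.11.15). Of the members, 16 were among the variable genes. Of 17 clusters, those whose median number of genes was below 0.75 of the overall median were set aside, as were those in which Pecam1, Ptprc or Dcn reached 2.5 times its median over clusters, and the hepatocytes were clustered again into 11 clusters. A zone name needed at least 3 of its markers at 5 CPM and 1.5-fold higher than elsewhere, more than for any other list, and 1 of them in the cluster's top 10 genes (at 20 CPM or more). Scrublet called 0 of 20159 and 0 of 13378 cells, so the caller did not work, doublets were not removed, and its scores alone were used.

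Sums of counts by class and library were expressed in CPM (exact Poisson intervals), ratios as log2 with exact conditional binomial intervals, and shares with exact Clopper-Pearson intervals. A pseudocount of 0.5 UMIs was used where all genes were compared. With 1 library per group there was no test and no p-value. A gene was called at 1.5-fold where its larger level was 1 CPM or more and its UMIs summed to 20 or more. The ratios were tested on simulated counts, and thinning was checked on real Tom- cells for its fixed total alone. Members named in full are the 3 of each group with the most UMIs, those called in a Tom+ comparison, and Ccnd1, Cdk1, Mki67, Top2a, Wee1 and Lmnb1. Genes of the other lists are named at 2-fold, and the clock genes were named after their values were seen. Gene positions came from GENCODE for the same build, and promoter windows from RefSeq. The members and lists were chosen with earlier results of these data known. Alternatives covered the cell filters, clustering, zoning, doublets, depth, scaling and call limits, and single clusters were also left out.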

Additional observations from a re-analysis of the deposited data

Results flagged for a closer look

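Several ratios pointed in opposite directions in the zones or libraries, each with an interval that left out 0, and none of these differences was tested. Between zone 3-like and zone 1-like cells the mitosis group had a log2 ratio of -0.22 in the Tom- (from -0.77 to -0.012 under the alternatives) and 0.20 in the Tom+ library, and the mitotic core genes had -0.21 and 0.22. Without cluster 7 (39 Tom- and 1582 Tom+ cells) the Tom+ ratios were -0.13 (-0.27 to 0.0067) and 0.027 (-0.070 to 0.12). Mitosis genes such as Mki67 were among the variable genes that formed this cluster. Leaving it out thus takes mitotic RNA mainly from the Tom+ library, so these lower ratios cannot decide what the opposite directions rest on. Between Tom+ and Tom- cells the mitotic core genes had -0.14 (zone 1-like) and 0.29 (zone 3-like), and the G1/S control group had -0.11 and 0.067, where the zone 3-like values were 0.12 and 0.054 without cluster 7. Among single genes, E2f8 had -0.28 (zone 1-like) and 0.27 (zone 3-like), and Ccnb2 had -0.23 and 0.43.

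Cells outside the comparisons also stood out. In clusters with few genes per cell, 10 of 306 Tom+ cells (3.27%, 1.58 to 5.93) had at least 3 mitotic core genes, against 13 of 3530 Tom- cells (0.37%), at the same 10000 UMIs per cell, which left out 25 shallower Tom+ and 1224 shallower Tom- cells. The class was not made of the same clusters in both libraries, since cluster 0 of all cells held 4380 of its 4754 Tom- but 164 of its 331 Tom+ cells, and cluster 13 held 360 and 167. In these clusters Mki67 was at 2.94 CPM (Tom-) and 9.84 CPM (Tom+), and Cdc20 at 1.02 and 6.05 CPM.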

How the results depend on the processing

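No paired analysis was possible because the groups have 1 library apiece, which also left no replicate to leave out. The group sums and counts gave 128 values under the alternatives set at the start, of which 93 stayed within the interval or count range of the value reported, 32 moved out of it, and 3 changed sign from a value whose interval left out 0. The named members gave 238, of which 204 stayed, 33 moved and 1 changed sign in that sense. Sign changes of any kind numbered 5 of 94 ratios of groups and core cells and 31 of 238 of named members. Wee1, Cdc20, Ccnd1 and E2f8 kept their direction in zone 3-like cells under all 14 alternatives, and Mki67 did in 10. In the comparison of Tom+ with Tom- zone 3-like cells, a limit of 1000 genes per cell gave -0.071 for DNA synthesis, -0.042 for G1/S control and 0.032 for G1 entry, with 1 member lower. Resolution 1.2 gave -0.0080 for DNA synthesis, 0.044 for G1 entry and 1 member higher. With each library clustered on its own Birc5 was at -0.0063, G1 entry at 0.22, G1/S control at 0.14, the G2/M switch at 0.26 and mitosis at 0.13, and 0 members were higher. Cells thinned to 10000 UMIs gave 0.053 for G1 entry, 0.14 for G1/S control and 0.61 for mitosis. Mean per-cell CPM gave 0.024 for DNA synthesis, and keeping clusters with few genes gave 0.14 for G1 entry. Leaving out clusters nearly all Tom+ gave 0.19 for the G2/M switch, 0.10 for mitosis and 0 members higher. No upper UMI limit gave 0.80 for mitosis and 4 members higher, quintiles as zones gave 0.20 and 1, and leaving out cells with 3 mitotic core genes gave 0.019 and 1. Members left out of the variable genes gave 1 higher, a 10 CPM minimum 0, no CPM minimum 5 and a 2-fold limit 1, against 2 as reported. For mitosis in zone 3-like against zone 1-like Tom- cells, the ratio was -0.022 with 1000 genes, -0.77 at resolution 0.4, -0.062 with quintiles and -0.012 without the core cells. The ratio of hepatocytes with 3 mitotic core genes was -0.25 at resolution 0.4. The cause of these moves was not tested. Without cluster 7, zone 3-like against zone 1-like Tom+ cells had -0.13 for mitosis and 0.027 for the mitotic core, against 0.20 and 0.22 with it. Leaving out hepatocyte clusters 7 (in that comparison), 8 or 9, or sub-clusters 7 or 10, was chosen after seeing the data. Median-of-ratios scaling shifted zone 3-like against zone 1-like Tom- ratios by 0.15. Mitosis genes below 1 CPM are limited by depth.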

Other observations

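Cells with over 100000 UMIs, left out by the study's filter, had at least 3 mitotic core genes in 2 of 360 Tom- cells (0.556%) and 17 of 1239 Tom+ cells (1.37%) at 10000 UMIs per cell. The shares over all cells kept, which include the clusters with markers of other cell types, were 1.12% and 0.958%. Over hepatocytes they were 0.216% and 0.347%. The cells over the limit were not sorted into classes for this count. Among hepatocytes with 3 mitotic core genes tdTomato was at 53.2 CPM in the Tom- library, against 72.1 CPM in other hepatocytes, and at 679 against 803 CPM in the Tom+ library.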
